A study of Mus musculus with 6 samples.

Results

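The genes of collagens, laminins and collagen hydroxylases were followed in mouse J1 embryonic stem (ES) cells moved from serum to 2i+vitC. They were taken by name alone, as every gene with a collagen (Col), laminin (Lama, Lamb, Lamc), collagen prolyl 4-hydroxylase alpha subunit (P4ha) or lysyl hydroxylase (Plod) symbol. This gave 33 of the 12626 genes in the files, of which 32 are described and counted as members: 20 collagens, 7 laminins and 5 hydroxylases. Of the 61 protein-coding mouse genes with such names, the other 28 were not analysed here, among them Col3a1, Col4a3 to Col4a6, Col6a1, Col6a2, Lama2, Lamb3 and P4ha3.

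RNA was sequenced from wild-type cells of J1, 1 ES cell line, in serum (day 0, D0) and after 6 and 13 days of 2i+vitC (D6, D13), each in 2 biological replicates. The D0 medium was Glasgow medium with 15% FBS, and D0 cells had no feeders. The medium of D6 and D13 was a mix of neurobasal and DMEM/F12 media with the Ndiff Neuro2 and B27 supplements in place of serum, and held the Gsk3 inhibitor CT-99021 (3 µM), the MEK inhibitor PD0325901 (1 µM) and vitamin C (vitC, 100 µg/mL). LIF at 1000 U/mL and gelatin-coated plates were common to all 3 days, while cells were passaged with TrypLE in serum and with accutase in 2i+vitC. Since these parts of the switch came together, with time in culture, their effects cannot be told apart. The samples had 73230745 to 83688345 reads on genes, and all 32 members had at least 10 reads in at least 2 samples, with between 8 and 65602 reads per sample. The 8 ES cell markers examined were at a log2 CPM of 4.50 or more in all 6 samples. From D0 to D13, Nanog (1.37) and Dppa5a (1.31) rose, Utf1 (-2.96) and Sox2 (-0.69) fell on the log2 scale, and the other 4, with Pou5f1, did not pass the test.

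Collagens are triple-helical proteins built from alpha chains, and laminins are trimers of an alpha, a beta and a gamma chain. Type IV collagen, laminins, nidogens and perlecan are the core of basement membranes, which ES cell derivatives such as primitive endoderm lay down. Before secretion, prolines of collagen are hydroxylated by prolyl 4-hydroxylase, whose alpha subunits are encoded by P4ha genes, and lysines by the Plod enzymes. Both kinds of enzyme are iron- and oxoglutarate-dependent dioxygenases for which vitC is a cofactor, as it is for TET enzymes. Messenger RNA, not enzyme activity or protein, was measured here.

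The level of a gene is given as the deposited log2 CPM (reads relative to the library size, on a log2 scale), listed for D0 replicates 1 and 2, D6 replicates 1 and 2, and D13 replicates 1 and 2. A log2 fold change is the difference of the day means with its standard error (SE), from a limma fit of all 6 samples in which p-values were adjusted over all genes and transposon families. A member is said to have risen or fallen where the adjusted p was under 0.05, and to have passed the 4-fold rule where it also changed by more than 4-fold. The comparisons of D0 with D6, D6 with D13 and D0 with D13 share samples and are not independent.

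From D0 to D6, 6 of 32 members fell past the 4-fold rule, which is 18.8% of them, against 3.90% of all genes, and 2 rose, which is 6.25% against 5.91%. By adjusted p alone, 7 fell (21.9%, against 10.4% of all genes) and 4 rose (12.5%, against 13.8%). From D6 to D13, 1 member fell past the 4-fold rule, against 0.697% of all genes, and 0 rose, against 0.388%. By adjusted p alone, the same counts of 1 and 0 stood against 2.76% and 1.43% of all genes. At an unadjusted limma p under 0.05, 5 members were lower and 4 higher at D13 than at D6. With voom weights in limma, 0 passed the test in either direction. No share of all genes was taken at the unadjusted p or with voom weights, so these counts cannot be set against one. From D0 to D13, 6 members fell past the 4-fold rule (18.8%, against 6.01%) and 3 rose (9.38%, against 7.45%). By adjusted p alone, 12 fell (37.5%, against 21.8%) and 6 rose (18.8%, against 20.9%). The share of members that rose was thus near that of all genes in each of the comparisons with D0, while the share that fell was above it.

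By class, the counts from D0 to D13 by adjusted p stand against 21.8% of all genes that fell and 20.9% that rose, and differences between the classes were not tested. Of the 20 collagens, 9 fell (45%) and 2 rose (10%), with a median log2 fold change of -0.75 against -0.01 over all genes. Of the 7 laminins, 1 fell (14.3%) and 3 rose (42.9%), with a median of 0.59. Of the 5 hydroxylases, 2 fell (40%) and 1 rose (20%), with a median of -0.37. Laminins and hydroxylases each held genes that rose and genes that fell, so that a median says little of a single member.

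**Figure D1:**
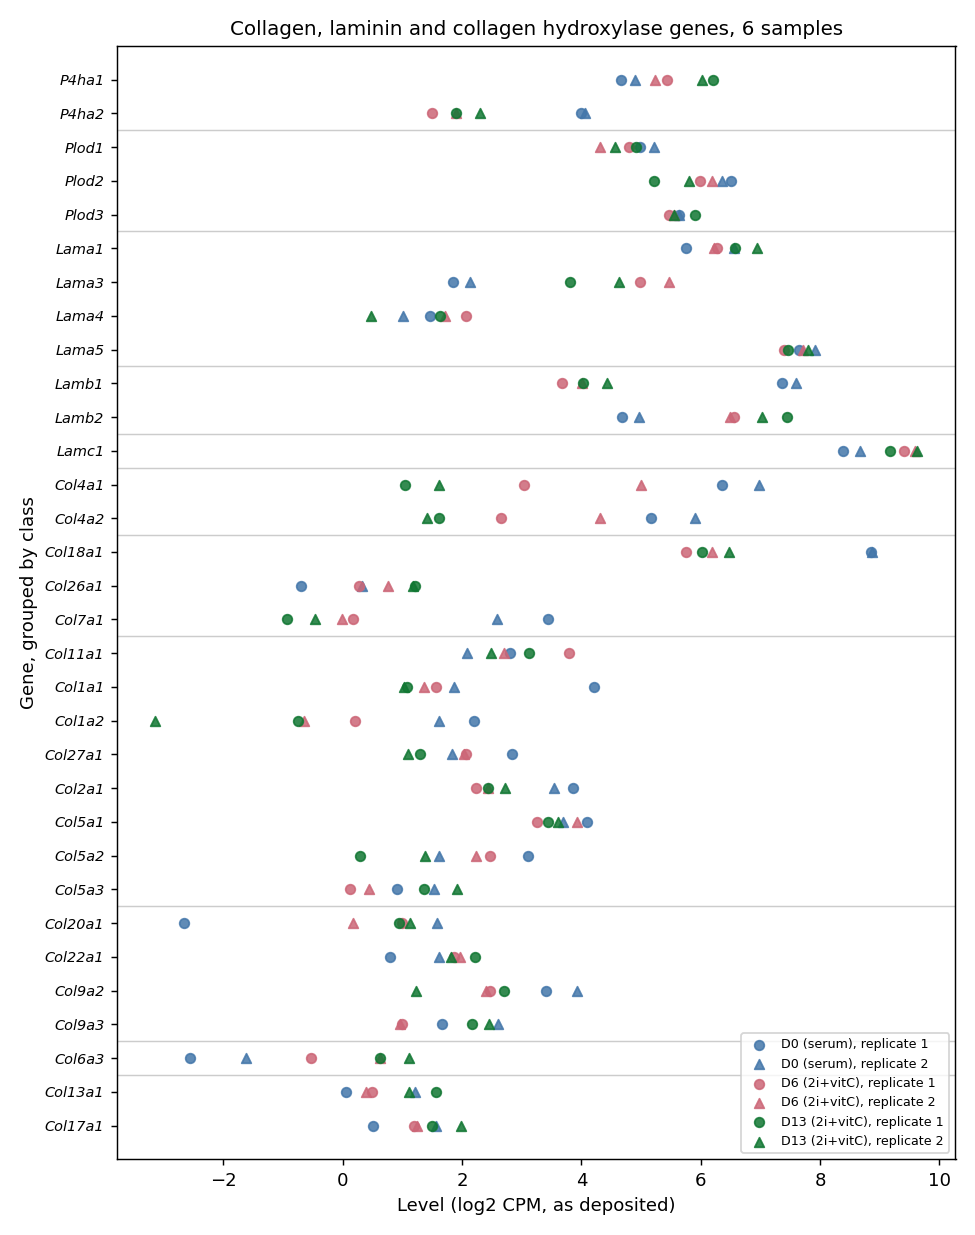
Level of each of the 32 genes in log2 CPM as deposited (x axis) in the 6 samples, with day by colour and replicate by symbol, and with grey lines between protein classes. Lamb1, Col18a1, Col4a1, Col4a2 and P4ha2 lie far to the right at D0, while Lama3, Lamb2 and Col6a3 lie to the left at D0.

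**Figure D2:**
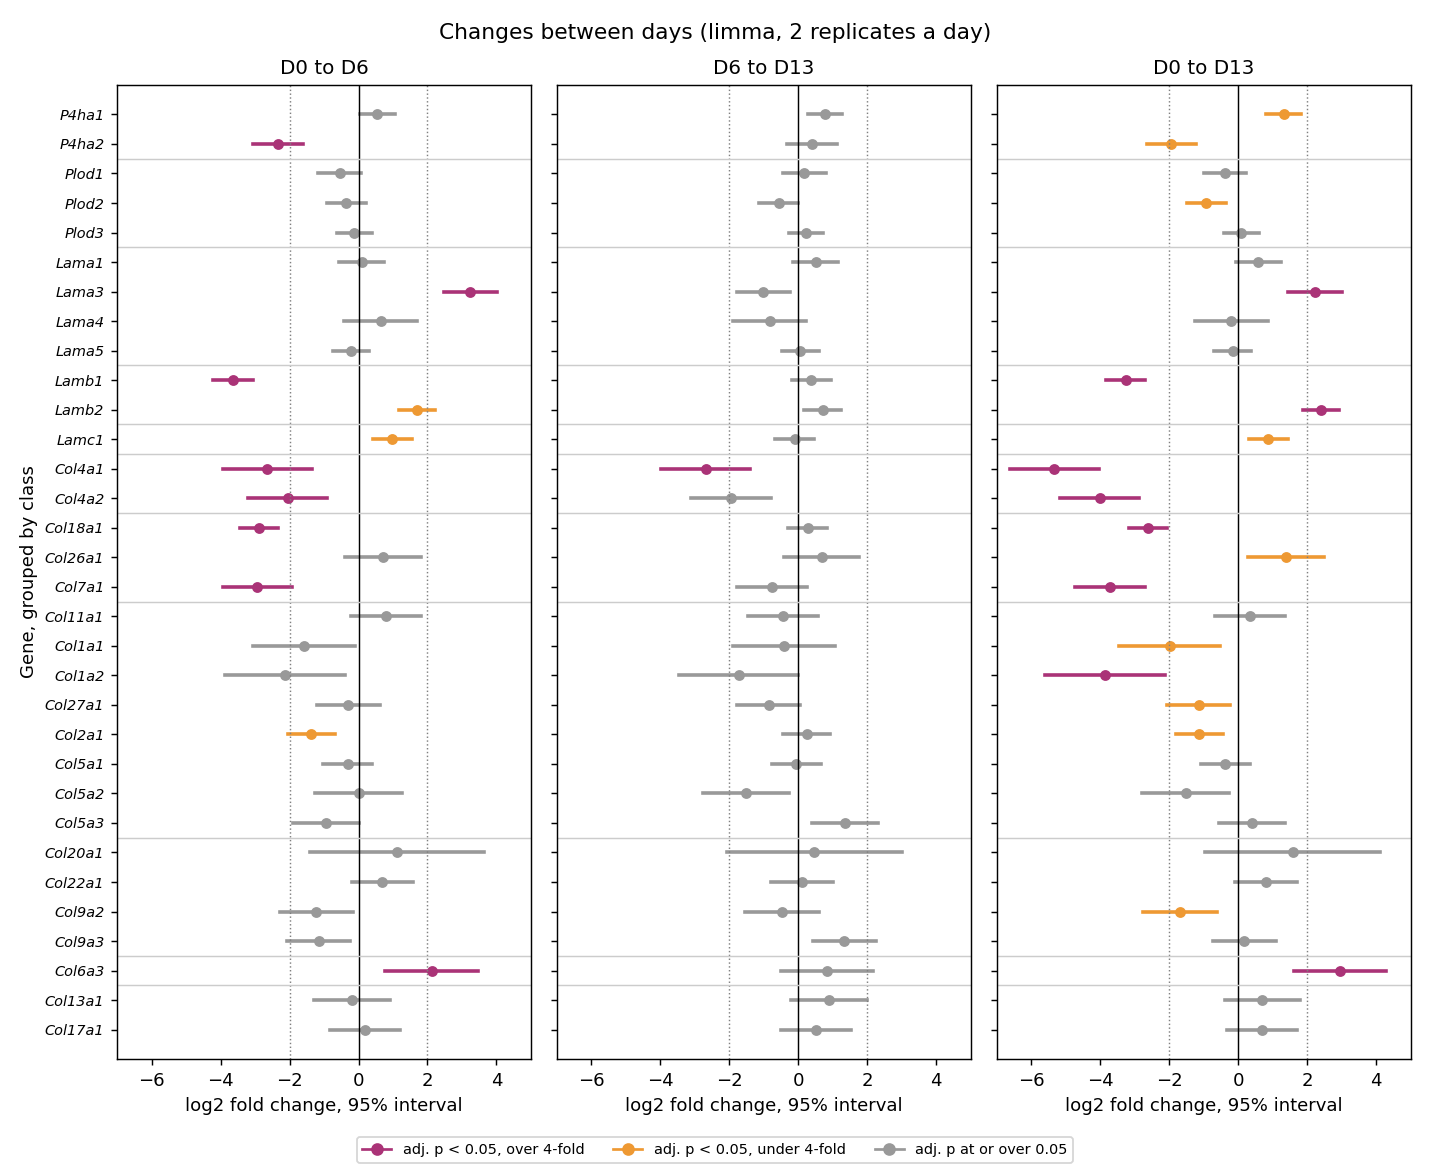
The log2 fold change of each gene (point) with its 95% interval from limma (line) for D0 to D6, D6 to D13 and D0 to D13. Dotted lines mark 4-fold, and colour marks the adjusted p and the 4-fold rule. Col4a1 is the 1 gene coloured in the D6 to D13 panel.

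The prolyl 4-hydroxylase alpha subunits went in opposite directions. From D0 to D13, P4ha2 fell 3.82-fold and P4ha1 rose 2.51-fold, both under the 4-fold minimum. From D0 to D6, P4ha2 fell 5.03-fold, while the change of P4ha1 did not pass the test. In the 250 bases before their RefSeq starts, both genes hold 3 copies of ACGTG or GCGTG, the core letters of hypoxia response elements, searched on both strands. Overlapping copies were counted, so that CACGTG counts once per strand. The feature is not particular to them, as the lysyl hydroxylase gene Plod3 holds 4 copies. Its change of 0.10 on the log2 scale from D0 to D13 did not pass the test. At least 3 copies are found in 6.58% of 32851 mouse promoter windows of that length, and at least 1 copy in 38.6%. ACGTG and GCGTG each hold a CG, and the windows of P4ha1 and P4ha2 are richer in CG than most. They have 69.6% and 70% GC, against a median of 52.4%, and 24 and 21 CG dinucleotides, against a median of 6. No share was taken among windows of like composition, so the 6.58% does not show that 3 copies are unusual for such windows. The windows are shown because these 2 genes changed in opposite directions while sharing this feature, with capitals for the matches on either strand, as RefSeq gives them on GRCm38.p6, at chr10:59323046-59323295 on the plus strand for P4ha1 and at chr11:54100674-54100923 on the plus strand for P4ha2.
P4ha1: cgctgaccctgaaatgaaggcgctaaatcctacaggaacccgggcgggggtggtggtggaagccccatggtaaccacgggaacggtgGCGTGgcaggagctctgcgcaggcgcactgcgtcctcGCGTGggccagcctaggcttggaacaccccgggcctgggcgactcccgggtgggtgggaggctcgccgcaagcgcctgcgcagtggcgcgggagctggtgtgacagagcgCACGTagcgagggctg
P4ha2: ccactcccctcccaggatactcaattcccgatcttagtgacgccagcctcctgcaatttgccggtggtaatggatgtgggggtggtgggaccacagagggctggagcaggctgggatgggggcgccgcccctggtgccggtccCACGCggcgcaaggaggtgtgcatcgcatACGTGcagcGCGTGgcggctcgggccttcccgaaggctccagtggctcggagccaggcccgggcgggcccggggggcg
A match of letters is a description and not a site of binding. The P4ha2 window lies before the RefSeq start and inside the first intron of a GENCODE vM21 isoform of P4ha2 that starts further upstream.

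P4ha1, which encodes the alpha subunit found in most cell types, had a log2 CPM of 4.67 and 4.90 in the D0 replicates, 5.43 and 5.24 in those of D6, and 6.20 and 6.02 in those of D13. The 3 days did not overlap and followed in that order. Its step to D6 was 0.55 (SE 0.22, limma adjusted p = 0.11) as a log2 fold change and that from D6 to D13 0.78 (SE 0.22, limma adjusted p = 0.079), while the full course from D0 gave 1.33 (SE 0.22, limma adjusted p = 0.0019). The rise therefore passed the test over the full course and in neither of its steps. P4ha2, the other alpha subunit measured, had a log2 CPM of 3.99 and 4.06 on D0, 1.49 and 1.90 on D6, and 1.90 and 2.30 on D13. Both D0 samples were above all 4 samples of 2i+vitC. To D6 it fell by 2.33 on the log2 scale (SE 0.32, limma adjusted p = 0.001), and it was at -1.93 (SE 0.32, limma adjusted p = 0.0017) at D13 relative to D0, under the 4-fold minimum. From D6 to D13 the change was 0.40 (SE 0.32, limma adjusted p = 0.47). Scaled by exon length, P4ha1 made up 70.8% and 73.1% of the P4ha1 and P4ha2 transcripts on D0, 95.9% and 93.9% on D6, and 96.8% and 95.2% on D13. Both genes summed to 44.0 ± 3.69 CPM on D0, 43.7 ± 2.97 on D6 and 73.6 ± 5.51 on D13 (SD, n = 2).

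Among the lysyl hydroxylases, Plod2, the enzyme of telopeptide lysines, fell and the other two did not pass the test. Plod2 had a log2 CPM of 6.51 and 6.35 on D0, 5.98 and 6.19 on D6, and 5.22 and 5.81 on D13. The days did not overlap, and D13 was lowest. Its fall to D13 came to -0.92 on the log2 scale (SE 0.25, limma adjusted p = 0.018), and it did not pass the test without D0 replicate 1 (-0.84, limma adjusted p = 0.074) or without D13 replicate 1 (-0.63, limma adjusted p = 0.064). Plod1, which hydroxylates lysines of the helix, had 4.98 and 5.22 on D0, 4.80 and 4.31 on D6, and 4.91 and 4.56 on D13 in log2 CPM. Its change from D0 to D13 was -0.37, with a 95% interval of -0.98 to 0.24. Plod3, which also has glycosyltransferase activity on collagen, had 5.64 and 5.63 on D0, 5.47 and 5.56 on D6, and 5.91 and 5.56 on D13 in log2 CPM. These samples lay within a narrow band. The interval of its change from D0 to D13 was -0.40 to 0.60. Of the exon bases of Plod3, 11.7% lie over Znhit1 on the opposite strand, and 6.42% of those of Plod2 over a predicted transcript, so that reads there may be shared if strand was not used in counting.

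Laminin beta chains changed places. Lamb1, the beta chain of the laminin of the early embryo, had a log2 CPM of 7.36 and 7.60 on D0, 3.68 and 4.01 on D6, and 4.02 and 4.43 on D13. Both D0 samples were far above the others. Its log2 fold change of -3.64 (SE 0.25, limma adjusted p = 4.2e-05) from D0 to D6, a 12.5-fold fall, was the steepest fall of a member in this step. At D13 it stood at -3.26 relative to D0 (SE 0.25, limma adjusted p = 4.4e-05). Lamb2, the beta chain of kidney and synaptic basement membranes, had 4.68 and 4.97 on D0, 6.56 and 6.49 on D6, and 7.45 and 7.02 on D13 in log2 CPM. Here the D0 samples were the lowest, D13 was highest, and the days did not overlap. It rose by 1.70 (SE 0.23, limma adjusted p = 0.001) to D6 and by 2.41 (SE 0.23, limma adjusted p = 0.00012) to D13, both from D0 and on the log2 scale. Per exon length, Lamb1 made up 79.8% and 79.2% of the 2 beta chains measured on D0, 7.72% and 9.85% on D6, and 5.38% and 9.23% on D13. The log2 ratio of Lamb1 to Lamb2 reads moved from 2.66 ± 0.04 at D0 to -2.68 ± 0.27 at D6 and -3.01 ± 0.59 at D13 (SD, n = 2). Lamb1 is at chr12:31265234-31329644 and Lamb2 at chr9:108479736-108490530, both on the plus strand of GRCm38, the build the study names mm10.

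Lamc1, the gamma chain shared by most laminins, rose. It had a log2 CPM of 8.38 and 8.67 on D0, 9.40 and 9.59 on D6, and 9.17 and 9.63 on D13. The D0 samples were below all others, and D6 and D13 overlapped. Per exon length it was second to Col18a1 among the members at D0 with 44.7 ± 6.19 CPM per kb, and first at D6 with 87.5 ± 8.01 and at D13 with 82.6 ± 18.5 (SD, n = 2). Relative to D0 it rose by 0.97 (SE 0.25, limma adjusted p = 0.021) to D6 and by 0.87 (SE 0.25, limma adjusted p = 0.021) to D13 on the log2 scale. Neither rise held in all 6 fits without a sample, and each was lost in more than 1 of them. The log2 fold change in these fits ranged from 0.83 to 1.11 for D6 and from 0.64 to 1.10 for D13.

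Of the 4 laminin alpha chains, Lama3 rose and the other 3 did not pass the test. Lama3, an alpha chain of epithelial basement membranes, had a log2 CPM of 1.85 and 2.14 on D0, 4.99 and 5.47 on D6, and 3.81 and 4.63 on D13. D6 was highest, D0 lowest, and the days did not overlap. By D6 it was 9.45-fold above D0 (log2 fold change 3.24, SE 0.34, limma adjusted p = 0.00026), and it was 4.68-fold above D0 at D13 (log2 fold change 2.23, SE 0.34, limma adjusted p = 0.0012). Without D13 replicate 2 the latter value was 1.82, under the 4-fold minimum, with a limma adjusted p of 0.0072. The difference of D6 and D13, -1.01 (SE 0.34, limma adjusted p = 0.12), did not pass the test.

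Lama5, an alpha chain of most adult basement membranes, had a log2 CPM of 7.64 and 7.92 on D0, 7.40 and 7.72 on D6, and 7.46 and 7.79 on D13. The days overlapped, and the change from D0 to D13 was -0.16 with a 95% interval of -0.69 to 0.37. Lama1, its embryonic counterpart, had 5.76 and 6.56 on D0, 6.27 and 6.23 on D6, and 6.58 and 6.94 on D13, a change of 0.59 with an interval of -0.06 to 1.25. Lama4, an alpha chain of vessels and muscle, ranged from 0.48 to 2.07 over the 6 samples. Per exon length, Lama5 held 56.2% to 73.9% of the alpha chain transcripts in a sample, Lama1 23.7% to 36.8%, and Lama3 1.29% to 13.5%. Summed reads of the 7 laminins were 880.0 ± 136 CPM on D0, 1139 ± 102 on D6 and 1183 ± 183 on D13 (SD, n = 2).

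**Figure D3:**
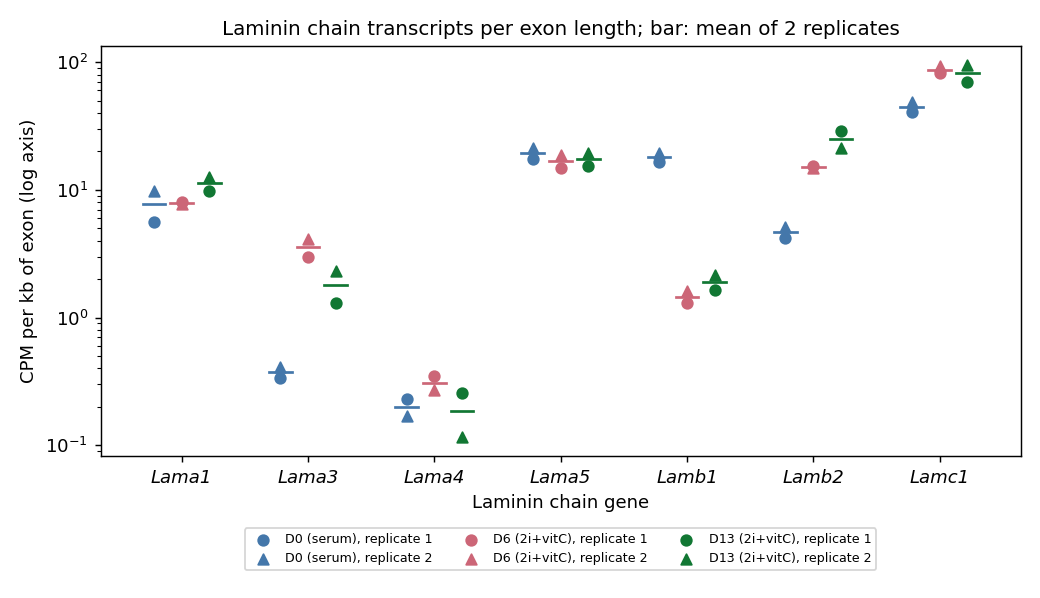
Level of the 7 laminin chain genes in CPM per kb of exon (y axis, log scale), with points for samples and bars for the mean of 2 replicates of a day. Lamb1 and Lamb2 cross between D0 and D6, Lama3 goes from 0.372 to 3.55, and Lama5 stays between 16.7 and 19.4 in the day means.

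**Figure D4:**
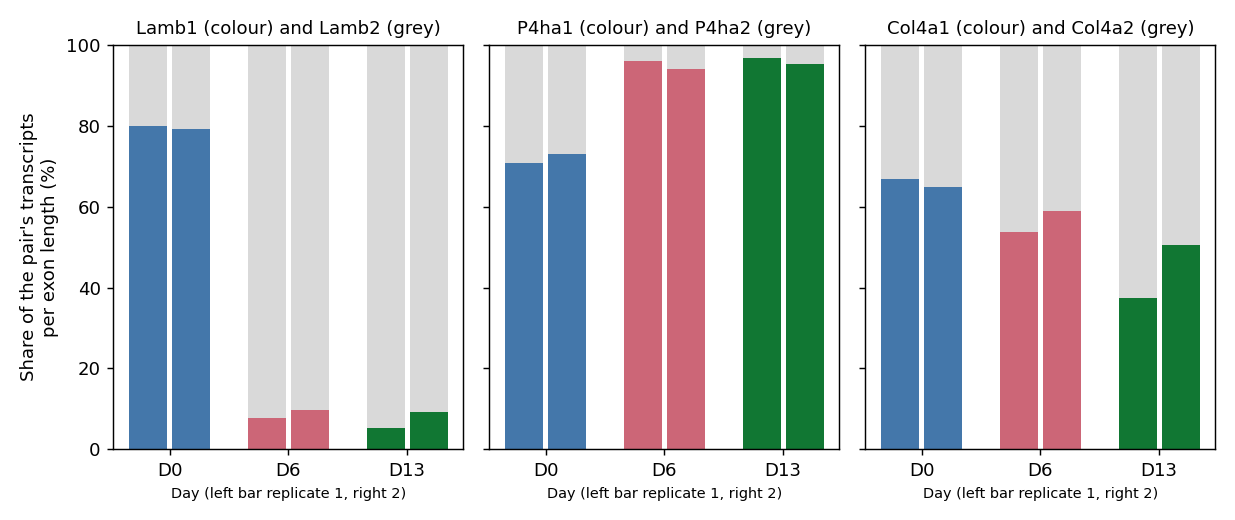
Share of each pair's transcripts per exon length in percent (y axis, from 0) for Lamb1 and Lamb2, P4ha1 and P4ha2, and Col4a1 and Col4a2, with 1 bar per sample. The Lamb1 share drops from about 79.8% to 7.72% in replicate 1 by D6, while the P4ha1 share goes from 70.8% to 95.9%.

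The 2 type IV collagen genes had the lowest log2 fold changes of all members from D0 to D13. Col4a1 and Col4a2 encode the 2 chains of the common type IV collagen of basement membranes and lie head to head, on opposite strands of chromosome 8, at chr8:11198423-11312826 and chr8:11312805-11449287 of GRCm38. Their annotated transcripts overlap at the start by 22 bases, at chr8:11312805-11312826, shown because these 2 genes are transcribed outward from it. The sequence of the plus strand, on which Col4a2 lies, has no capitals since no part is singled out.
Col4a1 and Col4a2 shared start: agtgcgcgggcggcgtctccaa

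Col4a1 had a log2 CPM of 6.35 and 6.97 on D0, 3.04 and 5.0 on D6, and 1.05 and 1.62 on D13. The days did not overlap, and the D6 replicates differed by more than the D0 or D13 replicates. In reads, these were 6435 and 10956, then 647 and 2730, then 148 and 230. Its change on the log2 scale was -2.64 (SE 0.57, limma adjusted p = 0.0097) from D0 to D6, -2.68 (SE 0.57, limma adjusted p = 0.037) from D6 to D13 and -5.33 (SE 0.57, limma adjusted p = 0.00019) from D0 to D13, a 40.1-fold fall. The steps were less firm than the whole. Without D0 replicate 2 the first step was -2.33 (limma adjusted p = 0.073), and without D6 replicate 1 it was -1.66 (limma adjusted p = 0.025), under the 4-fold minimum. The second step lost its call in 5 of the 6 fits without a sample, with -1.70 (limma adjusted p = 0.18) without D6 replicate 2 and -2.40 (limma adjusted p = 0.20) without D13 replicate 1. It also missed the test without D13 replicate 2 (limma adjusted p = 0.059), D0 replicate 1 (0.053) and D0 replicate 2 (0.054).

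Col4a2 had a log2 CPM of 5.16 and 5.91 on D0, 2.65 and 4.32 on D6, and 1.62 and 1.42 on D13. It had the order of days of Col4a1 and the same low sample at D6, replicate 1. On the log2 scale the change was -2.05 (SE 0.51, limma adjusted p = 0.019) from D0 to D6, -1.96 (SE 0.51, limma adjusted p = 0.062) from D6 to D13 and -4.01 (SE 0.51, limma adjusted p = 0.00046) from D0 to D13. The first step was -1.68 (limma adjusted p = 0.12) without D0 replicate 2 and -1.22 (limma adjusted p = 0.13) without D6 replicate 1. Per exon length, Col4a1 made up 66.9% and 64.9% of the pair on D0, 53.8% and 58.8% on D6, and 37.5% and 50.4% on D13.

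Of 14 markers of the endoderm, a known source of type IV collagen, 7 had a row. From D0 to D13, 1 fell by limma (14.3%, against 21.8% of all genes) and 0 rose (against 20.9%). The other 6 did not pass the test. A higher mean at D13 was seen in 4 of the 7 markers. Their summed level was 22.7 and 27.9 CPM on D0, 8.82 and 9.40 on D6, and 11.9 and 11.7 on D13. Dab2 made up 15.9 and 16.8 CPM of the D0 sums, and the 6 others summed to 6.79 and 11.1 CPM on D0, 8.17 and 8.38 on D6, and 11.3 and 11 on D13. The fall of the sum thus lay in Dab2. This gene, which encodes an endocytic adaptor of primitive endoderm, fell by 4.66 from D0 to D13 on the log2 scale (SE 0.40, limma adjusted p = 7e-05). Sox17, an endoderm transcription factor, ranged from -0.61 to 0.31 in log2 CPM, and its change of 0.30 (SE 0.49, limma adjusted p = 0.65) did not pass the test. The changes of Hnf4a (1.93), Srgn (0.77), Pdgfra (0.69), Plat (-0.22) and Amn (-0.51) did not pass it either, while Plat and Amn were lower at D6 than at D0 (-1.76 and -2.89, limma adjusted p = 0.018 and 0.0056). None of these 7 was at 0 reads in a sample, and Sox7, Foxa2 and the other 5 without a row were not analysed here. The part of such cells in the fall of Col4a1 and Col4a2 was not tested, and in bulk RNA fewer cells of a type cannot be told apart from less RNA per cell.

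Col18a1, which encodes the collagen core of a basement membrane heparan sulfate proteoglycan, gave most collagen reads at D0. It had a log2 CPM of 8.85 and 8.87 on D0, 5.76 and 6.19 on D6, and 6.02 and 6.47 on D13. Both D0 samples were far above the rest, and D6 and D13 overlapped. It fell by 2.89 (SE 0.24, limma adjusted p = 1e-04) from D0 to D6 on the log2 scale, and was 2.62 lower (log2 fold change -2.62, SE 0.24, limma adjusted p = 1e-04) at D13 than at D0. Per exon length it had the highest level of the members at D0, 66.3 ± 0.73 CPM per kb, against 9.07 ± 1.93 at D6 and 10.9 ± 2.36 at D13 (SD, n = 2). Col7a1, the collagen of the anchoring fibrils under epithelia, had 3.44 and 2.58 on D0, 0.17 and -0.01 on D6, and -0.93 and -0.46 on D13 in log2 CPM. The days did not overlap. Relative to D0 it was at -2.93 (SE 0.45, limma adjusted p = 0.0018) by D6 and -3.70 (SE 0.45, limma adjusted p = 0.00035) by D13 on the log2 scale. The third gene of this group, Col26a1, went from -0.70 and 0.33 at D0 to 1.22 and 1.18 at D13. Its log2 fold change of 1.38 (SE 0.48, limma adjusted p = 0.046) did not pass the test in 5 of the 6 fits without a sample, for example at 0.87 (limma adjusted p = 0.16) without D0 replicate 1.

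Reads on the 20 collagens summed to 688 and 740 CPM on D0, 131 and 186 on D6, and 132 and 154 on D13. Of this sum, Col18a1 gave 67.1% and 63.4% at D0, and Col4a1 with Col4a2 gave 17.1% and 25.1%. The other 17 collagens together had 109 and 85.3 CPM on D0, 62.9 and 60.6 on D6, and 61.7 and 59.9 on D13. The fall of the sum therefore lay for the greater part in these 3 genes.

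**Figure D5:**
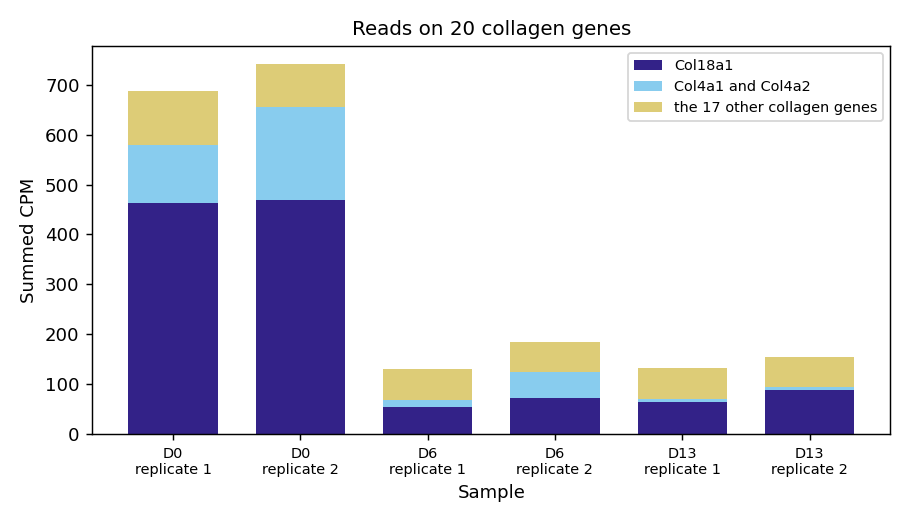
Summed CPM on the 20 collagen genes in each sample (bars from 0), split into Col18a1, Col4a1 with Col4a2, and the 17 other collagens. The D0 bars reach 688 and 740, and the bars of D6 and D13 lie between 131 and 186.

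The 8 fibrillar collagens fell or did not pass the test. From D0 to D6, 1 fell (12.5%, a share near the 10.4% of all genes) and 0 rose (against 13.8%). From D0 to D13, 4 fell (50%, against 21.8% of all genes) and 0 rose (against 20.9%) by limma. The median log2 fold change of the 8 was -1.13. At an unadjusted limma p under 0.05, 0 were higher at D13 than at D0, with no share of all genes taken there. Of these 4, Col1a1, Col2a1 and Col27a1 missed the test in at least 1 of the 6 fits without a sample. Col1a2, a chain of type I collagen, had a log2 CPM of 2.21 and 1.62 on D0, 0.21 and -0.64 on D6, and -0.75 and -3.14 on D13. The lowest sample, D13 replicate 2, held 8 reads. Its decrease to D13 was -3.86 on the log2 scale (SE 0.76, limma adjusted p = 0.0042), and that to D6 was -2.13 (SE 0.76, limma adjusted p = 0.078). Without D13 replicate 2 the first of these was -2.66. Col1a1, the other chain of type I collagen, had 4.21 and 1.87 on D0, 1.57 and 1.36 on D6, and 1.08 and 1.03 on D13. D0 replicate 1 stood apart with 1461 reads against 318 in D0 replicate 2. Between D0 and D13 it changed by -1.98 (SE 0.65, limma adjusted p = 0.037), and -0.81 (limma adjusted p = 0.13) without D0 replicate 1. It also missed the test without D13 replicate 1 (limma adjusted p = 0.14) or D13 replicate 2 (0.12).

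Col2a1, the collagen of cartilage, fell by 1.37 (SE 0.30, limma adjusted p = 0.011) from D0 to D6 on the log2 scale, from 3.86 and 3.55 to 2.23 and 2.44. At D13 it was at 2.43 and 2.72, a change from D0 of -1.13 (SE 0.30, limma adjusted p = 0.016), which missed the test without D0 replicate 1 (limma adjusted p = 0.054) or D13 replicate 1 (0.062). For the change to D6, without D6 replicate 1 or D6 replicate 2, the limma adjusted p was 0.12 and 0.061. Col27a1, a fibrillar collagen of cartilage, had a change of -1.14 on the log2 scale (SE 0.40, limma adjusted p = 0.049) between D0 and D13, which did not pass the test in 5 of the 6 fits without a sample, for example at -0.64 (limma adjusted p = 0.19) without D0 replicate 1. Col5a1, Col5a2, Col5a3 and Col11a1, which regulate or form thin fibrils, did not pass the test in any comparison, with log2 fold changes from D0 to D13 of -0.37, -1.52, 0.41 and 0.35.

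Of 12 markers of fibroblasts, a known source of type I collagen, 5 had a row. From D0 to D13, 2 of these 5 fell by limma (40%, against 21.8% of all genes), 0 rose (against 20.9%) and 3 did not pass the test. Their summed level was 102 and 52.8 CPM on D0, 9.08 and 9.0 on D6, and 12.6 and 9.45 on D13. Tagln made up 79.5 and 30.3 CPM of the D0 sums, and the 4 others summed to 22.1 and 22.5 CPM on D0, 7.33 and 7.80 on D6, and 12 and 9.37 on D13. Tagln, a smooth muscle and fibroblast actin-binding protein, was lower on D13 than on D0, with a log2 fold change of -7.74 (SE 0.84, limma adjusted p = 0.00021), and it was higher in D0 replicate 1 (6.31) than in D0 replicate 2 (4.92). Fbn1, the microfibril protein fibrillin, had -3.84 (SE 0.37, limma adjusted p = 0.00012). Pdgfrb, a receptor of mesenchymal cells, ranged from 1.57 to 2.34 in log2 CPM, and its change of 0.44 (SE 0.34, limma adjusted p = 0.32) did not pass the test, nor did those of Thy1 (-0.60, limma adjusted p = 0.31) and Twist1 (-0.34, limma adjusted p = 0.66). At D6, however, Thy1 was lower than at D0 (-1.89, limma adjusted p = 0.016). Twist1 was at -1.66 in that comparison (limma adjusted p = 0.067), and Pdgfrb at -0.01. The lowest marker value was 6 reads. The list of 8 epiblast and mesoderm markers had 3 with a row. Their sum was 118 and 129 CPM at D0 against 25.9 to 31.2 at D13. By limma, 2 of the 3, Otx2 and Pou3f1, fell from D0 to D13 (66.7%, against 21.8% of all genes). None rose (0, against 20.9%). Eomes, with a log2 fold change of -0.44 (limma adjusted p = 0.40), did not pass the test. Of 8 trophoblast markers, 4 had a row. These summed to 174 and 113 CPM on D0, 17.3 and 17.6 on D6, and 32.4 and 27.8 on D13. From D0 to D13, 2 of the 4 fell (50%, against 21.8% of all genes) and 0 rose (against 20.9%). Krt8 and Krt18 fell by 2.93 and 2.71 on the log2 scale. Ascl2 and Krt7 had changes of 0.96 and 0.41 that did not pass the test. From D6 to D13, however, 2 rose (50%, against 1.43% of all genes) and 0 fell (against 2.76%). They were Krt7 (2.20, limma adjusted p = 0.024) and Krt18 (1.39, limma adjusted p = 0.043), which had fallen to D6. The part of such cells in the changes of the collagens was not tested.

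Among the remaining collagens, Col6a3, a chain of the beaded filaments of type VI collagen, rose from few reads. It had a log2 CPM of -2.55 and -1.61 on D0, -0.53 and 0.62 on D6, and 0.63 and 1.12 on D13. This is 13 and 28 reads at D0 and 110 and 163 reads at D13. Both later days were higher, with log2 fold changes relative to D0 of 2.12 (SE 0.59, limma adjusted p = 0.031) for D6 and 2.96 (SE 0.59, limma adjusted p = 0.0045) for D13. The first step lost its call without D0 replicate 1 (1.66, limma adjusted p = 0.12), D6 replicate 2 (1.55, limma adjusted p = 0.28), D13 replicate 1 (limma adjusted p = 0.051) or D13 replicate 2 (0.052). Col6a1 and Col6a2, the chains with which it assembles, were not analysed here.

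Of the 4 fibril-associated collagens, Col9a2 fell from D0 to D13 and the other 3 did not pass the test. Col9a2, a chain of the cartilage collagen IX, had 3.40 and 3.92 on D0, 2.47 and 2.41 on D6, and 2.71 and 1.23 on D13 in log2 CPM. Its log2 fold change of -1.69 (SE 0.47, limma adjusted p = 0.020) was -0.95 (limma adjusted p = 0.067) without D13 replicate 2 and -1.43 (limma adjusted p = 0.10) without D0 replicate 2. Its partner Col9a3 had a change of 0.18 (SE 0.40, limma adjusted p = 0.73) between the same days and its lowest samples at D6, 0.99 and 0.97. Of the exon bases of Col9a3, 6.07% lie over Tcfl5 on the opposite strand. Col20a1 had 12 reads in D0 replicate 1 and 262 in D0 replicate 2, so that its change could not be placed, with a 95% interval of -0.96 to 4.11. Col22a1 and the transmembrane collagens Col13a1 and Col17a1 had log2 fold changes of 0.81, 0.70 and 0.69 from D0 to D13, which did not pass the test.

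Genes that act on collagen beside the hydroxylases were mixed in direction. Of 18 listed symbols of folding and modification genes, some of them older and newer symbols of the same gene, 11 had a row. Of these 11 genes, 4 rose (36.4%, against 20.9% of all genes) and 2 fell (18.2%, against 21.8%) from D0 to D13. Fkbp10, a prolyl isomerase of the endoplasmic reticulum that acts on procollagen, went from 5.75 and 5.10 at D0 to 1.48 and 1.6 at D13 in log2 CPM, a log2 fold change of -3.89 (SE 0.39, limma adjusted p = 0.00014). Leprel4, whose product partners lysyl hydroxylase in the endoplasmic reticulum, fell by 2.21 (SE 0.35, limma adjusted p = 0.0021) from D0 to D6. The 3 genes of the prolyl 3-hydroxylase complex rose. Crtap had a log2 fold change from D0 to D13 of 1.40 (limma adjusted p = 0.0055), Lepre1, its enzyme, of 1.24 (limma adjusted p = 0.0047), and Ppib, its isomerase, of 0.95 (limma adjusted p = 0.032). P4hb, the beta subunit of prolyl 4-hydroxylase that is also a general disulfide isomerase, was at 9.05 or more in log2 CPM in all samples, with a change of -0.36 (SE 0.30, limma adjusted p = 0.37). Serpinh1, the collagen chaperone, fell by 1.45 (SE 0.24, limma adjusted p = 0.0028) to D6 and was at -0.40 (SE 0.24, limma adjusted p = 0.21) at D13.

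Of 16 listed genes of procollagen secretion, processing and cross-linking, 11 had a row, and 2 rose (18.2%, against 20.9% of all genes) and 4 fell (36.4%, against 21.8%) from D0 to D13. Pcolce, an enhancer of procollagen C-proteinase, rose by 2.21 (SE 0.32, limma adjusted p = 0.00085) and Sec23a, of the vesicle coat that carries procollagen, by 1.38 (SE 0.22, limma adjusted p = 0.0015), both on the log2 scale. Mia3, the receptor that loads collagen into vesicles, fell by 1.13 (SE 0.20, limma adjusted p = 0.0028), and Tll1, a procollagen proteinase, by 1.56 (SE 0.44, limma adjusted p = 0.021). Adamts14 fell by 1.33 (SE 0.35, limma adjusted p = 0.016) and Loxl2 by 0.82 (SE 0.25, limma adjusted p = 0.03). Loxl1 fell by 2.38 to D6 (SE 0.42, limma adjusted p = 0.0039), past the 4-fold rule. At D13 Loxl1 was at -0.78 relative to D0 (SE 0.42, limma adjusted p = 0.17).

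Of 13 other basement membrane genes, 10 had a row, and from D0 to D13 3 rose (30%, against 20.9% of all genes) and 1 fell (10%, against 21.8%). Nid1, the nidogen that links laminin with type IV collagen, had a log2 CPM of 6.09 and 6.51 on D0, 9.07 and 9.08 on D6, and 9.04 and 9.51 on D13. It rose by 2.97 (SE 0.25, limma adjusted p = 6.1e-05) from D0 to D13 on the log2 scale, while Col4a1 and Col4a2 fell. Egfl6 and Tinagl1, matrix proteins of basement membranes, rose by 2.51 (limma adjusted p = 0.0012) and 2.20 (limma adjusted p = 0.0082). Ntn1, the laminin-related netrin, fell by 2.86 (SE 0.37, limma adjusted p = 0.016) from D6 to D13. Hspg2, perlecan, and Agrn, agrin, had changes of -0.32 and -0.11 from D0 to D13 that did not pass the test.

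Of 13 collagen and laminin receptors, 10 had a row, and from D0 to D13 1 rose (10%, against 20.9% of all genes) and 3 fell (30%, against 21.8%). The discoidin domain receptors, tyrosine kinases that bind collagen, went in opposite directions. Ddr1 had a log2 CPM of 6.37 and 5.76 on D0, 2.76 and 3.07 on D6, and 2.09 and 2.60 on D13, and fell by 3.72 over the full course (SE 0.32, limma adjusted p = 7.1e-05). Ddr2 had 1.20 and 2.10, then 6.54 and 6.76, then 5.69 and 5.49, and rose by 3.94 (SE 0.32, limma adjusted p = 5.3e-05). Itga3, the integrin subunit that binds laminins, fell by 1.80 (SE 0.26, limma adjusted p = 9e-04). Itga6 and Itgb1, the integrin pair that binds laminin in ES cells, changed by 0.11 and 0.01 from D0 to D13, which did not pass the test.

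Of 11 other vitC-dependent hydroxylases and vitC transporters, 10 had a row, and from D0 to D13 2 rose (20%, a share near the 20.9% of all genes) and 4 fell (40%, against 21.8%). Slc23a1, a sodium-dependent vitC transporter, went from 4.34 and 4.73 at D0 to 1.46 and 1.46 at D13 in log2 CPM, a log2 fold change of -3.07 (SE 0.31, limma adjusted p = 0.00014). Its paralog Slc23a2 had 6.01 and 6.74 at D0 and 5.62 and 6.72 at D13, with a change of -0.20 (SE 0.37, limma adjusted p = 0.68). Phyh, a peroxisomal hydroxylase of branched fatty acids, rose by 2.80 (SE 0.27, limma adjusted p = 0.00012), and Tmlhe, the first enzyme of carnitine synthesis, by 1.64 (SE 0.40, limma adjusted p = 0.011). Egln3, a prolyl hydroxylase of HIF, fell by 2.56 to D6 (SE 0.36, limma adjusted p = 0.0011) and was at -1.88 (SE 0.36, limma adjusted p = 0.0034) at D13.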

How the data were processed

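The study mapped paired-end reads of WT J1 ES cells at D0, D6 and D13 (2 biological replicates each) on mm10 with TopHat2 (2.0.6) and counted RefSeq genes with HTSeq (0.6.1), with the strand setting of the count not given in the sources used here. Versions are from the submitters' processing notes. The authors merged genes and transposon families, normalized by TMM and deposited log2 CPM from voom. In every sample, all gene values under 2000 reads were whole reads within 0.02 reads after an offset of 0.5, which gave the depth. A value of 3 reads was 0.034 to 0.042 CPM, and counting error alone is covered by it.

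All 12626 genes and 302 families were fitted with limma 3.58.1 (R 4.3.3), with a mean per day, all 6 samples and a mean-variance trend, with Benjamini-Hochberg adjustment of p over the 12928 rows. The calls need an adjusted p under 0.05, and for the 4-fold rule also more than a 4-fold change, the rule of the study. With 2 replicates per day an SD rests on 2 values and no exact test of a single gene can be informative. On simulated data, 100% of 200 genes changed by 3 on the log2 scale from D0 to D6 were recovered, with 0 unchanged rows called. The simulation gave all rows the same spread and changed only genes above a minimum of reads. Real replicates varied more in some members, with an SD of 3.00 in log2 CPM for Col20a1 at D0. It therefore checks that the fit runs as meant and does not measure the error rate on these data.

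Levels between genes were compared per union exon length of GENCODE vM21 on GRCm38, while the study counted on RefSeq. The files' gene names lack the capital G in all rows, which touches no member. Of the 33 genes that the names gave, 1 is not reported here and is left out of the counts, sums and plots of members, while it stayed in the fit. The members, marker lists and pathway lists were chosen with earlier results of these data known. Members described in full are the hydroxylases, laminins, type IV collagens, the 3 members with the highest level per length on each day, and in each comparison up to 6 members per direction past the 4-fold rule with 10 reads in both samples of the day with the higher mean. Of each pathway list, up to 4 called genes by size of change were to be named, and genes beyond that or not called were named after their values were seen. Other settings tried were a fit of 2 days alone, a block for the replicate number, the fits without 1 sample, a filter of 10 reads in 2 samples, no trend, voom weights on the recovered reads, centring on the median gene, log2(CPM + 1), a 2-fold minimum and an adjusted p under 0.01. Software was Python 3.11.15 with numpy 2.4.6, pandas 2.3.3 and matplotlib 3.10.9.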

Additional observations from a re-analysis of the deposited data

How the results depend on the processing

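Of the changes of members over all settings, 1185 kept their direction and their side of the 4-fold rule, 26 that did not pass it in either fit changed sign, 14 came to pass it and 23 no longer did, and 0 that passed it, or passed the adjusted p alone, changed sign. Many of these fits cannot change a direction. The log2 fold change stays the same in the fit of 2 days, with the replicate block, with the read filter and with no trend. It also stays the same without a sample of the day not compared. The kept directions are thus in large part fixed by construction. By adjusted p alone, 6 of the 11 members that passed from D0 to D6 and 11 of the 18 that passed from D0 to D13 did so in each fit without a sample, and the 1 from D6 to D13, Col4a1, did not.

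By the 4-fold rule, 2 members rose from D0 to D6. This count was 1 in a fit of those days alone, 1 on log2(CPM + 1), 1 at an adjusted p under 0.01, 3 with a 2-fold minimum, and 1 to 3 without a sample. The 1 member down from D6 to D13 was 0 in the fit of those days alone, 0 with no mean-variance trend, 0 with voom weights, 0 at an adjusted p under 0.01, and 0 to 2 without a sample. From D0 to D13, 3 rose, which became 1 on log2(CPM + 1) and 5 with a 2-fold minimum. In that comparison 6 fell, which became 11 with a 2-fold minimum. No share of all genes was taken in the other settings, the replicate block and the fits without a sample included. The counts of members in those settings therefore cannot be set against one. By adjusted p alone, 4 rose from D0 to D6, with 2 to 5 without a sample. From D6 to D13, 0 rose and 1 fell by adjusted p alone. In the fit of those days alone these were 1 and 0, with no trend or with voom weights 0 fell, and without a sample 0 to 1 rose and 0 to 2 fell. On log2(CPM + 1), Col6a3 from D0 to D6 was at 0.73 and no longer passed, as low levels are compressed on that scale.

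The pathway lists had 11, 11, 10, 10 and 10 genes with a row. Of these genes, 4 rose and 6 fell by the 4-fold rule from D0 to D6, and 7 and 10 with a 2-fold minimum. Over all genes, the 4-fold rule was passed by 5.91% up and 3.90% down in that comparison. These shares were 7.45% and 6.01% from D0 to D13, and 0.388% and 0.697% from D6 to D13. No such share was taken at the 2-fold minimum. From D0 to D13, 6 of the list genes rose and 4 fell, and 10 and 11 with the 2-fold minimum. From D6 to D13, 0 rose and 1 fell, with 0 to 1 in each direction without a sample and 0 down at an adjusted p under 0.01.

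The replicate numbers 1 and 2 recur on each day, but nothing in the labels says that they mark a shared batch. Differences between replicates had an r of -0.13 for D0 and D6, 0.33 for D6 and D13 and 0.14 for D0 and D13 across the 12626 genes, which are not independent. With the replicate block, 3 members fell from D6 to D13 by adjusted p alone and 1 by the 4-fold rule, 7 and 2 members fell and rose from D0 to D6, and 6 and 3 from D0 to D13.
With 2 samples a day, small changes such as those of Plod1 and Plod3 could not be placed closer than their intervals, and the fits without a sample assume that the lone sample of a day varies like the others. Members with few reads, such as Col1a2 at D13 and Col6a3 at D0, are limited by counting.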
